A study of Mus musculus with 9 samples.

Results

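Integrins are cell surface receptors made of 1 alpha and 1 beta chain, and the 10 subunits described here, Itga3, Itga4, Itga5, Itga6, Itga8, Itga9, Itgav, Itgb1, Itgb5 and Itgb8, are chains of receptors that bind extracellular matrix. They were chosen by gene name, as the probe sets whose single gene symbol in the platform annotation is one of these 10. All 10 were on the array, through 35 of its 45101 probe sets, and they are 10 of 18193 genes with a probe set of 1 symbol. Where a gene had several probe sets, the one of highest mean over all arrays stands for it, and the others are reported beside it. The filter on low values kept probe sets above the 40th percentile of an array on at least 3 arrays. All 10 representative probe sets passed it, as did 19 of the 35.

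RNA came from laser-microdissected regions of the optic cup of mouse embryos at E11.5, a stage at which the ventral rims of the cup are still apart along the optic fissure, and each sample was hybridised to 1 Affymetrix mouse expression array. The 3 regions, with 3 arrays each lettered A, B and C, were the optic fissure (cup cells within 5 cell diameters of its edge), the central nasal cup and the central temporal cup. No treatment or mutation is named for any group, and the sources used here give no strain. The series calls the arrays of a region biological replicates but does not say whether arrays of 1 letter share embryos. The p-values set each region difference against the spread of arrays within regions. They speak only for these samples, and the main fit ignores the letters.

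An integrin joins the matrix outside the cell to talin, kindlin and the actin skeleton inside it. The alpha chain largely sets which ligand is bound. Itga3 and Itga6 make laminin receptors, Itga5, Itga8 and Itgav make receptors that read the Arg-Gly-Asp motif of fibronectin, vitronectin or nephronectin, and Itga4 and Itga9 bind fibronectin, VCAM1 or tenascin. Itgb1 is the shared partner of most alpha chains, while Itgb5 and Itgb8 pair with Itgav. In the eye cup, a basement membrane lines the fissure margins that later meet and fuse, and integrins are the receptors through which neuroepithelial cells hold to it.

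The region labels were checked on 4 genes taken as markers of position, Vax1, Vax2, Foxd1 and Foxd2. Vax1, which encodes a ventral eye homeobox factor, read 559.0 to 732.9 in fissure arrays, against 14.9 to 43.6 in nasal and 29.5 to 55.8 in temporal arrays. Foxd1, a gene of the temporal retina, read 4.3 to 8.5 in nasal arrays, against 849.7 to 1004.4 in temporal arrays, and 28.6 to 102.5 in fissure arrays. Vax2 read 524.2 to 928.5 in fissure arrays, against 284.4 to 373.1 in nasal and 300.1 to 430.3 in temporal arrays. Foxd2 was dim and separated no regions, at 15.1 to 23.0 in fissure, 21.2 to 28.1 in nasal and 21.0 to 38.4 in temporal arrays. The summed intensity of 9 neural retina genes was 8311 to 8946 in the fissure, 12448 to 15241 in the nasal and 13405 to 14882 in the temporal cup. Fissure array B stood apart from fissure arrays A and C on the first principal component of all tested genes, at -9.39 against -38.6 and -43.0, with nasal arrays at 5.91 to 21.4 and temporal arrays at 4.63 to 29.5. A poly-A control RNA added during labelling read 844.4 to 2099.2 in fissure arrays, 492.6 to 1060.2 in nasal and 420.1 to 959.5 in temporal arrays, and the 3-prime over 5-prime ratio of Gapdh was 4.93 to 14.96 in fissure, 4.90 to 8.77 in nasal and 4.46 to 7.42 in temporal arrays. Subunits that lose their call with the poly-A signal as a covariate are named below.

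The first comparison set the fissure margin against the mean of the central nasal and central temporal cup. Itga8, Itgav and Itga6 were higher in the fissure than in the mean of nasal and temporal cup, and Itgb8 and Itga4 were lower. Thus 5 of the 10 subunits passed in limma at an adjusted p below 0.05, where 8.6% of the 12773 tested genes did. The 3 that rose stand against 5.72% of genes called higher, and the 2 that fell against 2.88% called lower. With the letter as a replicate block, 6 rose and 2 fell, where 16.9% of genes passed, 11% higher and 5.97% lower. The groups of 6 subunits did not overlap, against 14.2% of tested genes. The median change over the 10 subunits was 0.53 on the log2(intensity + 16) scale, and it was 0.04 over all tested genes. The 10 subunits and the gene lists used below were chosen with earlier results of these data known. Their counts beside those of all genes are a description, not an independent test. With the poly-A control signal added to the model, a choice made after seeing the data, only Itga8 and Itgb8 of the 10 subunits passed. Of all 12773 tested genes 446 passed in that fit, against 1098 in the main fit.

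**Figure D1:**
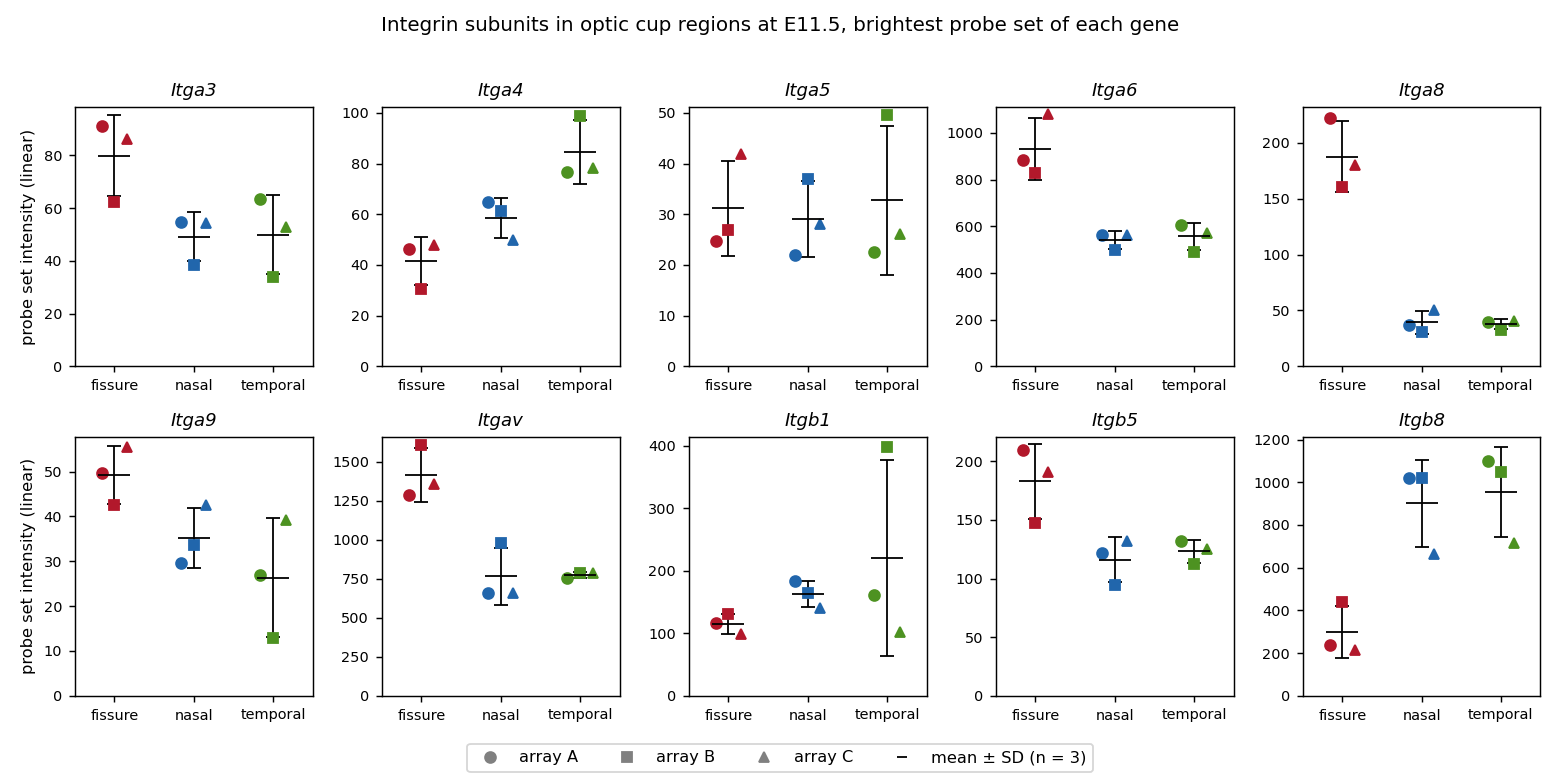
Linear probe set intensity (vertical axes, from 0) of each integrin subunit in the fissure, nasal and temporal arrays, with 1 symbol per array letter and the mean ± SD of 3 arrays in black. Itga8, Itga6, Itgav and Itgb5 have all 3 fissure arrays above the 6 others, and Itgb8 and Itga4 have all 3 below them.

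Among the receptors of the Arg-Gly-Asp motif, Itga8 changed most. It encodes the chain that pairs with Itgb1 to bind nephronectin, fibronectin and tenascin, and is known for its part in kidney development. Its intensities were 222.5, 160.2 and 180.0 in fissure arrays A, B and C, against 36.6, 30.5 and 50.6 in nasal and 39.6, 32.3 and 40.8 in temporal arrays. Every fissure array thus stood far above every other array, and nasal and temporal arrays overlapped. The means were 188 ± 31.8 in the fissure, 39.2 ± 10.3 in nasal cup and 37.6 ± 4.60 in temporal cup (SD, n = 3 each). The log2 change for the fissure over the average of both other regions was 1.90 (SE 0.16, adjusted p = 3.07e-05), which is 3.74-fold on the log2(intensity + 16) scale. Within letters A, B and C it was 2.14, 1.90 and 1.67. In bulk samples, more cells that express a gene and more RNA per cell cannot be told apart. A second Itga8 probe set read 0.5 to 16.8 over the 9 arrays, under the low-value filter on all of them. With the mean of both Itga8 probe sets in place of the brightest, the change was 1.10 (adjusted p = 2.57e-04).

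Itgav, the alpha chain of the vitronectin and latent TGF-beta receptors, rose by less from a bright signal. It read 1284.7, 1611.0 and 1356.2 in fissure arrays, against 660.5, 979.4 and 659.2 in nasal and 753.4, 787.2 and 787.4 in temporal arrays. The fissure arrays lay above all others, and nasal array B lay nearest to them. The log2 change was 0.87 (SE 0.16, adjusted p = 0.0052), and it hardly varied by letter, at 0.85, 0.86 and 0.90. Of its 4 other probe sets, 1 passed the filter, at a mean of 13.5 and a log2 change of 0.12 (adjusted p = 0.861 among probe sets). With the poly-A signal as covariate the change stayed at 0.85 and the adjusted p was 0.0706. With the mean of all Itgav probe sets in place of the brightest the change was 0.13 (adjusted p = 0.466).

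Itga5, the fibronectin receptor chain, showed no regional difference that could be detected here. Its intensities were 24.7, 26.9 and 42.0 in the fissure, 22.0, 36.9 and 28.1 in nasal cup and 22.6, 49.6 and 26.1 in temporal cup, so the 3 groups overlapped. The log2 change was 0.02, with a 95% interval from -0.42 to 0.46 (adjusted p = 0.971). The 40th percentile of all arrays was 15.7 to 17.5, so this signal was dim, and the other Itga5 probe sets were dimmer. The brighter of those averaged 22.5 and differed by 0.17 (adjusted p = 0.637 among probe sets).

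Of the laminin receptor chains, Itga6 rose. This chain pairs with Itgb1 or Itgb4, and it is the alpha chain of hemidesmosomes. It read 881.7, 827.0 and 1081.1 in fissure arrays, against 561.2, 497.5 and 562.9 in nasal and 605.4, 490.7 and 572.8 in temporal arrays. No fissure array came near the others. The log2 change was 0.74 (SE 0.14, adjusted p = 0.00658), a 1.67-fold difference, and it was positive in all 3 letters. The second Itga6 probe set read 347.2, 337.9 and 332.5 in the fissure, against 261.5, 195.1 and 247.9 in nasal and 219.3, 240.2 and 210.5 in temporal arrays. It gave 0.54 (adjusted p = 0.0444 among probe sets), so both Itga6 probe sets separated the fissure from the nasal and temporal arrays. With the poly-A signal as covariate, the change of Itga6 was 0.66 and its adjusted p 0.106.

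Itga3, the other laminin receptor chain, was higher on average and did not pass. It read 91.1, 62.5 and 86.3 in the fissure, 54.8, 38.5 and 54.2 in nasal cup and 63.3, 33.7 and 52.9 in temporal arrays. Array B was the lowest of its region each time, and fissure array B fell within the range of temporal arrays. The log2 change was 0.56 (SE 0.18, adjusted p = 0.0884), and 0.51, 0.59 and 0.56 by letter. With the letter as a replicate block the adjusted p was 0.00703. Without fissure array A, B or C it was 0.336, 0.0414 and 0.293, and with the poly-A signal as covariate 0.327. Of 20 alternatives, 3 made Itga3 pass. The 2 other Itga3 probe sets were under the filter on every array.

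Among the chains that bind fibronectin, VCAM1 or tenascin, Itga4 was lower in the fissure. Itga4 is found on leukocytes and on migrating neural crest. It read 46.4, 30.6 and 47.7 in fissure arrays, against 64.7, 61.2 and 49.7 in nasal and 76.5, 98.9 and 78.3 in temporal arrays. Nasal array C lay just above fissure array C, and temporal arrays were highest. The log2 change was -0.60 (SE 0.15, adjusted p = 0.0338). This call held without nasal array C or temporal array C, and was lost without fissure array A, B or C, nasal array A or B, or temporal array A or B, at adjusted p of 0.0841, 0.0815, 0.0670, 0.0789, 0.0638, 0.0524 and 0.0636. It was also lost with the poly-A signal as covariate (change -0.55, adjusted p = 0.256), with every probe set tested on its own (adjusted p = 0.0510) and with the mean of all Itga4 probe sets (change -0.27, adjusted p = 0.199). The second Itga4 probe set above the filter differed by -0.51 (adjusted p = 0.184 among probe sets).

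Itga9, which pairs with Itgb1 and binds tenascin-C, read 49.7, 42.6 and 55.4 in the fissure, 29.5, 33.7 and 42.6 in nasal cup and 26.9, 12.9 and 39.3 in temporal arrays. Fissure array B and nasal array C had the same value, and temporal array B was the only one below the 40th percentile of its array. This made a log2 change of 0.51 (SE 0.19, adjusted p = 0.144), and 0.0381 was its adjusted p with the letter as a replicate block. Of 20 alternatives, 2 made Itga9 pass, and with the poly-A signal as covariate the adjusted p was 0.7565. Its 2 other probe sets were at or under the filter on at least 8 of 9 arrays.

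**Figure D2:**
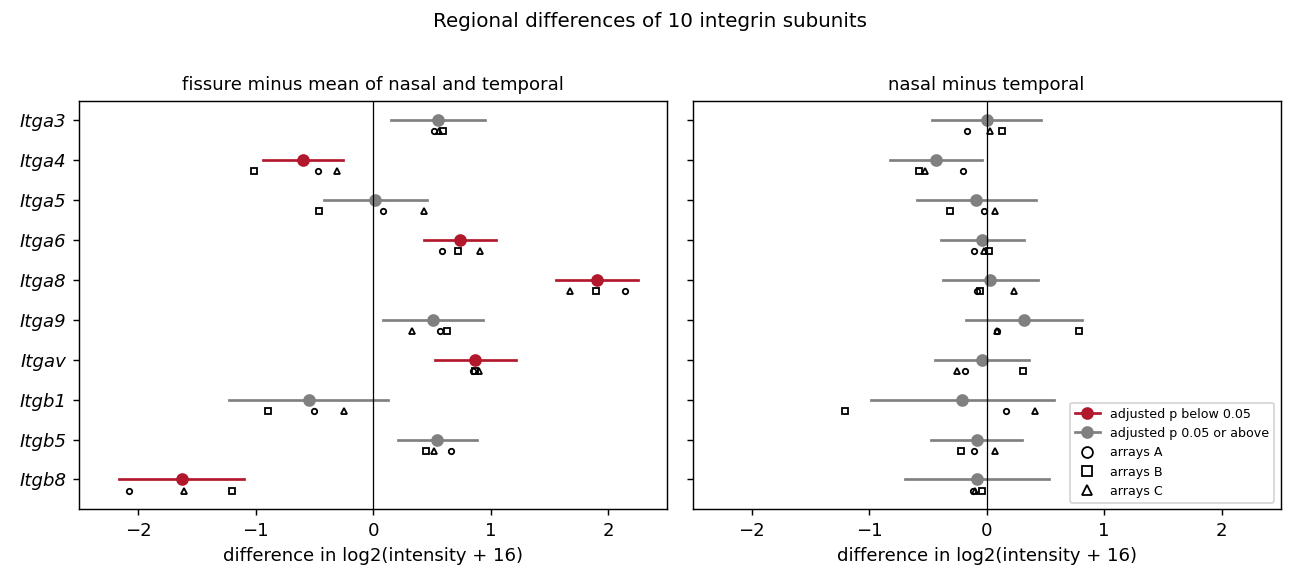
Difference in log2(intensity + 16) of each subunit for the fissure minus the mean of nasal and temporal cup (left) and for nasal minus temporal cup (right), as the estimate with its 95% interval from limma (dots and bars) and the difference within each array letter (small open symbols). The intervals of Itga8 (1.56 to 2.25) and Itgb8 (-2.16 to -1.10) lie farthest from 0 on the left, and those on the right all include 0 except that of Itga4 (-0.82 to -0.04).

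The beta chains differed from each other in direction. Itgb8, which with Itgav makes a receptor for latent TGF-beta, was the subunit with the largest fall. It read 239.6, 440.3 and 215.5 in fissure arrays, against 1018.1, 1020.8 and 666.1 in nasal and 1101.8, 1047.9 and 714.6 in temporal arrays. All fissure arrays were below all others, with fissure array B the highest of its region and array C the lowest of every region. The fitted log2 change came to -1.63 (SE 0.24, adjusted p = 0.00141), which makes the fissure level 0.324 of that in nasal and temporal cup. Within letters it was -2.07, -1.20 and -1.61. Without fissure array B the estimate was -1.93, and with the poly-A signal as covariate it was -1.24 (adjusted p = 0.0440). The gene has 1 probe set.

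Itgb5, the other dedicated partner of Itgav and a vitronectin receptor chain, was on the edge of the threshold in the opposite direction. It read 209.9, 147.3 and 191.2 in the fissure, 121.5, 94.5 and 132.0 in nasal cup and 131.9, 112.6 and 125.2 in temporal arrays. The groups did not overlap, and fissure array B was again nearest to the others. Its log2 change was 0.55 (SE 0.15, adjusted p = 0.0502, or 0.00878 under the replicate block by letter). Without fissure array A, B or C the adjusted p was 0.253, 0.0193 and 0.193. It was 0.264 with the poly-A signal and 0.101 with the Gapdh ratio as covariate. Of 20 alternatives, 5 made Itgb5 pass. The 3 other Itgb5 probe sets all passed the filter and differed by 0.36, 0.67 and 0.79, with adjusted p among probe sets of 0.153, 0.0405 and 0.0866. All 4 thus pointed up, and 1 passed.

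Within each array, the log2 value of Itgav minus that of Itgb8 was 2.35, 1.83 and 2.57 in the fissure, -0.61, -0.06 and -0.01 in nasal and -0.54, -0.41 and 0.14 in temporal cup. The value of Itgb5 minus that of Itgb8 was -0.18, -1.48 and -0.16 in the fissure, -2.91, -3.23 and -2.20 in nasal and -2.92, -3.05 and -2.37 in temporal cup. Fissure arrays were above all others in both. These differences show unequal change between subunits, since the levels of different probe sets cannot be set against each other.

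Itgb1, the shared partner of most alpha chains, passed the test in none of the 4 comparisons, with or without the replicate block. It read 116.4, 131.3 and 98.5 in the fissure, 183.1, 164.1 and 141.2 in nasal cup and 161.4, 398.3 and 102.1 in temporal arrays. Temporal array B stood far above the other arrays and temporal array C lay within the fissure range. It gave a log2 change of -0.55, with a 95% interval from -1.22 to 0.12 (adjusted p = 0.330). A second Itgb1 probe set with a similar mean read 154.7, 149.2 and 124.2 in the fissure, 197.9, 158.3 and 143.9 in nasal cup and 156.3, 257.6 and 144.1 in temporal arrays. It too was highest in temporal array B, and it differed by -0.25 (adjusted p = 0.528 among probe sets). Of the 4 others, 1 passed the filter.

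**Figure D3:**
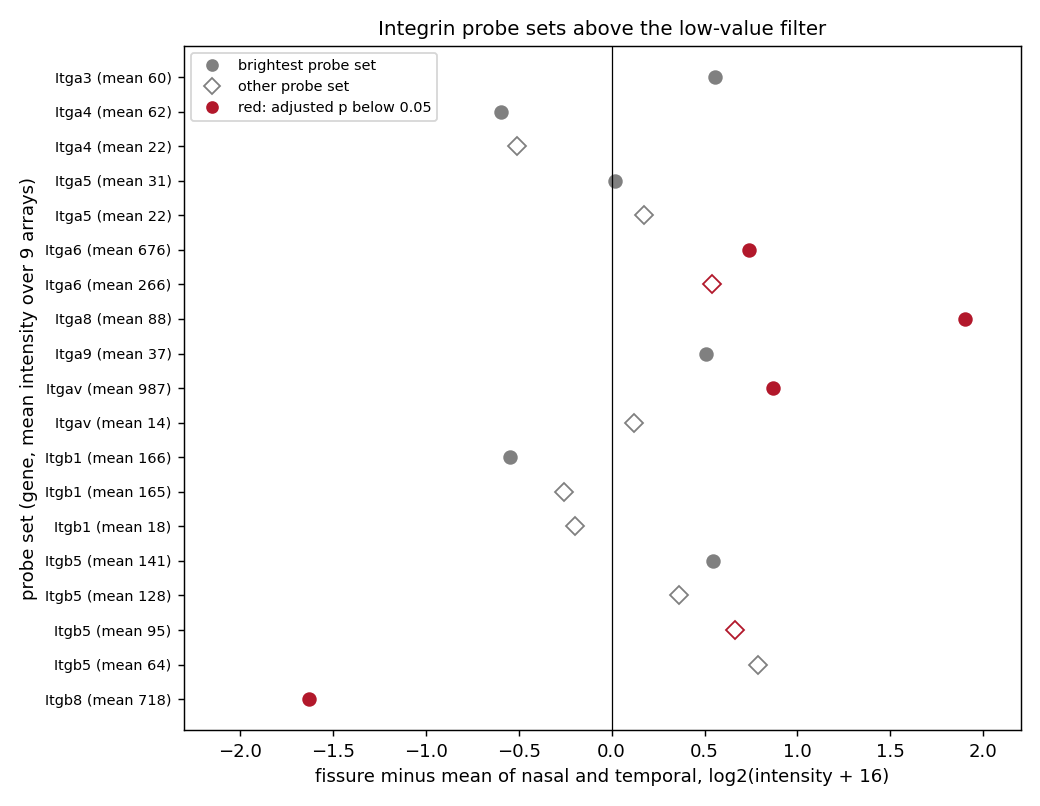
Difference between the fissure and the mean of nasal and temporal cup on the log2(intensity + 16) scale (horizontal axis) for the 19 integrin probe sets above the low-value filter, 1 row per probe set with its mean intensity. Filled circles are the brightest probe set of a gene, open diamonds the others, and red marks an adjusted p below 0.05 when every probe set is tested. Probe sets of 1 gene lie on the same side of 0 in every case shown.

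The promoters of the 2 subunits with the largest change each way are shown for reference, from 250 bases before to 50 after the annotated start, as held by RefSeq for GRCm38.p6. Of the 10 subunits, 9 had such a window. The Itga8 window is chr2:12301895-12302194 and the Itgb8 window chr12:119238227-119238526, both on the minus strand. Capitals mark any match, on either strand, to the TATA box TATAAA, the CCAAT box with those letters, the GC box GGGCGG or the homeodomain core TAATTA, and no 2 matches overlap here.
Itga8: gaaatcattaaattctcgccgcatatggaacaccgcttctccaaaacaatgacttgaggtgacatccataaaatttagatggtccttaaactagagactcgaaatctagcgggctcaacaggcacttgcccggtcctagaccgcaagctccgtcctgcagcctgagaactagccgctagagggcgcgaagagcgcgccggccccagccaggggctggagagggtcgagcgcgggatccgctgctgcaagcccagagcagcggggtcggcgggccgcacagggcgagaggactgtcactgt
Itgb8: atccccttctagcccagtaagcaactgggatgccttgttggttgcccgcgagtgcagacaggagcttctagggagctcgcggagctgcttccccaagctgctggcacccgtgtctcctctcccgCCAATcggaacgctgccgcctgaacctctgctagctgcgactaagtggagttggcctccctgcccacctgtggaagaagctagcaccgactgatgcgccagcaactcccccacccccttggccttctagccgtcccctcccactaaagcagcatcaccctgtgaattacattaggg
The Itga8 window held none of the 4 motifs and the Itgb8 window held 1 CCAAT. Over 32851 windows of the same length, TATAAA was in 13.6%, CCAAT in 37.4%, GGGCGG in 35.7% and TAATTA in 5.29%. The 2 windows were 59.0% and 60.7% G or C, against a median of 52.7% over all windows.

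The fissure was then set against each side of the cup alone, with the fissure arrays shared between the 2 comparisons. Against nasal cup 4 of the 10 subunits passed in limma, where 6.37% of genes did, 4.41% higher and 1.97% lower. Itga8 (log2 change 1.89, SE 0.18, adjusted p = 1.20e-04), Itgav (0.89, SE 0.18, adjusted p = 0.0134) and Itga6 (0.76, SE 0.16, adjusted p = 0.0168) were higher, and Itgb8 (-1.59, SE 0.28, adjusted p = 0.00559) was lower. With the poly-A signal as covariate only Itga8 passed, where 410 of 12773 genes did, and Itgb8 lost its call at a change of -1.25 (adjusted p = 0.0524). Without nasal array A only 2 subunits passed, where 437 of 12773 genes did. With the letter as a replicate block 6 passed, where 12.4% of genes did. Itga4 differed by -0.38 (adjusted p = 0.283) and Itgb5 by 0.59 (adjusted p = 0.0806, or 0.0149 under the replicate block by letter). Itga3 differed by 0.56 (adjusted p = 0.168, and 0.0174 with the block). The groups of 8 subunits did not overlap, where those of 22.5% of genes did not.

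Against temporal cup 5 subunits passed, where 5.36% of genes did, 3.47% higher and 1.89% lower. Itga8 (1.92, SE 0.18, adjusted p = 1.23e-04), Itgav (0.85, SE 0.18, adjusted p = 0.0191) and Itga6 (0.72, SE 0.16, adjusted p = 0.0239) were higher. Itgb8 (-1.67, SE 0.28, adjusted p = 0.00434) and Itga4 (-0.81, SE 0.18, adjusted p = 0.0209) were lower. With the letter as a replicate block 8 passed, where 12.1% of genes did, the additions being Itga3 (0.55, adjusted p = 0.0188), Itga9 (0.67, adjusted p = 0.0297) and Itgb5 (0.50, adjusted p = 0.0312). With the poly-A signal as covariate only Itga8 passed, where 277 of 12773 genes did, and Itgb8 lost its call at -1.23 (adjusted p = 0.100). The number of subunits passing was 3 without fissure array A or C, where 372 and 403 of 12773 genes passed. It was 2 without temporal array A or B, where 450 and 447 genes passed. The groups of 7 subunits did not overlap, where those of 21.7% of genes did not.

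Nasal and temporal cup were compared last. None of the 10 subunits passed in limma, with or without the letter as a block, and 1, Itga4, had an unadjusted p below 0.05. In limma 0.047% of tested genes passed, and 0.133% with the block. Itga4 was lower in nasal than in temporal cup by 0.43 (SE 0.18, unadjusted p = 0.0331, adjusted p = 0.9999), and it was lower in nasal arrays in all 3 letters. It was also the only subunit whose groups did not overlap, where those of 6.8% of genes did not. For the subunits that changed in the fissure, the nasal minus temporal difference was 0.03 for Itga8 (95% interval -0.37 to 0.43), -0.08 for Itgb8 (-0.70 to 0.53), -0.04 for Itgav (-0.44 to 0.36) and -0.04 for Itga6 (-0.39 to 0.32).

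Integrins outside the 10 were dim on these arrays. Of 7 further subunits with a probe set, which include collagen and epithelial receptor chains, 3 passed the low-value filter and none of those passed the test in limma or had an adjusted p below 0.51 for the fissure against the other regions. Itgb3, a further partner of Itgav, did not pass the filter, at 20.9, 13.9 and 23.3 in the fissure, 6.0, 8.2 and 5.8 in nasal cup and 15.0, 2.6 and 0.8 in temporal cup. Of 8 leukocyte and platelet integrin genes, 2 were tested and neither passed. Itgb2, the common beta chain of leukocyte integrins, read 12.9 to 14.0 in fissure and 1.9 to 2.9 in nasal arrays and averaged 7.37 ± 5.08 in temporal arrays (SD, n = 3), under the filter. Itgam and Itgax, alpha chains of myeloid cells, read at most 7.9 and 16.7 in the fissure, 8.6 and 6.0 in nasal cup, and 14.0 and 16.3 in temporal cup.

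Marker genes of other cell types, and of pigment epithelium and neural retina, differed in both directions between the fissure and the other regions. The summed intensity of all 14 leukocyte markers with a probe set was 3027 to 3621 in the fissure, 565 to 843 in nasal cup and 451 to 739 in temporal arrays. Over all tested genes, 5.72% were higher in the fissure and 2.88% lower. With the replicate block these shares were 11% and 5.97%. Of 13 tested leukocyte markers 13 were higher in the fissure. Of these, 3 (Aif1, C1qa and C1qc) passed the low-value filter through the fissure arrays alone, which favoured that call. Of 15 mesenchyme markers, 6 were higher and 2 lower (7 and 2 with the replicate block), of which Eya2 was tested through the fissure arrays alone, with sums of 1459 to 3042 in the fissure, 909 to 1561 in nasal cup and 756 to 1626 in temporal cup. Of 8 tested lens markers 5 were higher (6 with the block), and the sums over all 10 with a probe set were 2525 to 3656 in the fissure, 693 to 736 in nasal cup and 612 to 1304 in temporal cup. Of 8 tested endothelial markers none passed in limma and 1 did with the block, with sums over 10 genes of 422 to 787 in the fissure, 373 to 517 in nasal cup and 418 to 620 in temporal cup. Of 6 tested surface ectoderm markers 3 were lower and 1 was higher, Cdh1, which was tested through the fissure arrays alone, with sums over 8 genes of 464 to 541 in the fissure, 1169 to 1538 in nasal cup and 873 to 1301 in temporal cup. Of 8 pigment epithelium markers 1 was higher and 4 were lower (1 and 5 with the block), and of 9 neural retina markers none was higher and 3 were lower (1 and 3 with the block). None of these markers was at 0 on every array. The part of these cells in the integrin values was not tested.

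Ligands in the matrix were described from a list of 27 genes with a probe set, of which 26 were tested. Against the average of both other regions, 4 were higher and 2 lower, where 5.72% of all tested genes were higher and 2.88% lower. The median over the list was 0.26. With the replicate block 9 were higher and 3 lower, where 11% and 5.97% of genes were. Lamb1, a laminin chain, read 1262.5, 1737.0 and 1127.7 in the fissure, against 404.3, 441.2 and 475.1 in nasal and 448.4, 353.9 and 411.6 in temporal cup (log2 change 1.65, SE 0.16, adjusted p = 8.13e-05). Nid1, which links laminin to collagen IV, rose by 1.74 (adjusted p = 3.38e-04), and Egfl6, a matrix ligand of Itga8, by 0.73 (adjusted p = 0.00488). Postn, the periostin gene, which is also on the mesenchyme list, fell by 1.43 (adjusted p = 0.00234). Named after their values were seen, Col18a1 differed by 0.70 and Fbn2 by -0.92.

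Nephronectin, the main ligand of Itga8, is encoded by Npnt. Npnt read 640.5, 317.6 and 335.2 in the fissure, 358.1, 249.8 and 285.0 in nasal cup and 383.9, 205.1 and 310.4 in temporal cup, with overlap between groups (log2 change 0.46, adjusted p = 0.308, or 0.0468 under the replicate block by letter). Fn1, the fibronectin gene, differed by -0.23 (adjusted p = 0.428). Vtn, the vitronectin gene, read 53.3, 34.0 and 25.1 in the fissure, 8.6, 28.6 and 11.6 in nasal cup and 17.9, 13.0 and 14.4 in temporal cup (0.75, adjusted p = 0.0532, and 0.0323 with the block). Tnc, the tenascin-C gene, did not pass the filter.

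The Itgav and Itgb8 receptor binds latent TGF-beta. A list of genes for TGF-beta ligands, latent TGF-beta binding proteins and TGF-beta receptors went both ways. Of 8 tested, 3 were higher and 1 lower, where 5.72% and 2.88% of all tested genes were, with a median of 0.01. The counts were the same with the replicate block, where 11% and 5.97% of genes were. Ltbp1, which tethers latent TGF-beta to the matrix, read 73.3, 103.7 and 121.4 in the fissure, against 428.9, 287.0 and 455.0 in nasal and 449.3, 298.7 and 545.0 in temporal cup (log2 change -1.87, SE 0.22, adjusted p = 3.09e-04). The related Ltbp3 rose by 1.04 (adjusted p = 0.00157), and the receptors Tgfbr2 and Tgfbr3 by 1.01 (adjusted p = 0.0254) and 0.96 (adjusted p = 0.00326). The ligand genes Tgfb1, Tgfb2 and Tgfb3 differed by -0.03, 0.05 and -0.08, with adjusted p of 0.961, 0.923 and 0.833.

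Inside the cell, 4 of 30 tested integrin adaptor genes were higher in the fissure and none was lower, where 5.72% and 2.88% of all tested genes were. The median over the list was 0.22. With the replicate block 5 were higher and 1 was lower, where 11% and 5.97% of genes were. The 1 lower was Crk (log2 change -0.43, adjusted p = 0.184 without the block and 0.0404 with it). Crk, an adaptor of focal adhesions, was chosen after its values were seen. Fermt3, the kindlin of blood cells, read 118.5, 55.4 and 163.1 in the fissure, 17.7, 21.6 and 22.5 in nasal cup and 31.0, 13.6 and 29.2 in temporal cup (log2 change 1.65, SE 0.26, adjusted p = 0.00201). The leukocyte gene Ptprc, in the same arrays, read 129.0, 87.7 and 142.4, against 22.0, 23.8 and 14.8 in nasal and 17.1, 16.1 and 9.7 in temporal cup. Parvb, which binds integrin-linked kinase, rose by 0.98 (adjusted p = 0.00592). Itgb1bp1 and Sharpin, both known as inhibitors of Itgb1 receptor activation, rose by 0.54 (adjusted p = 0.0346) and 0.62 (adjusted p = 0.0450). Of 9 tetraspanin and lateral partner genes 2 were higher and none lower, where 5.72% and 2.88% of all tested genes were. The counts were the same with the block, where 11% and 5.97% of genes were. Cd9 rose by 1.12 (adjusted p = 0.00383) and Cd151, a partner of laminin-binding integrins, by 0.74 (adjusted p = 0.00558).

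**Figure D4:**
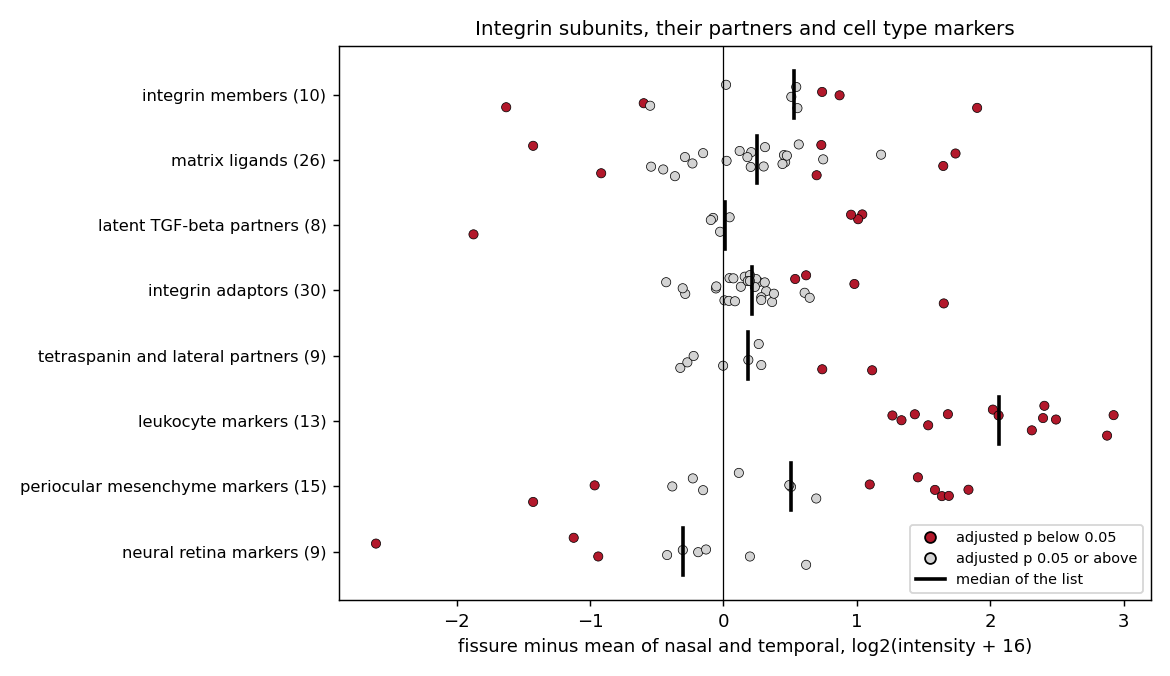
Difference between the fissure and the mean of nasal and temporal cup on the log2(intensity + 16) scale (horizontal axis) for each tested gene of 8 lists, with the number tested in brackets. Each point is 1 gene, red where the adjusted p is below 0.05, the black bar is the list's median, and the vertical scatter has no meaning. The median of the 10 integrin subunits is 0.53 and that of the integrin adaptors 0.22.

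Across the 9 arrays, the genes whose log2 values correlated best with those of Itga8 were Penk (Pearson r = 0.990), Cdkn1c (0.988), Mrc1 (0.987), Scrn1 (0.986) and Ctla2b (0.985). For Itgb8 they were Zik1 (0.996), Atad5 (0.978), Ptprz1 (0.977), Mak16 (0.976) and Thumpd3 (0.975). Mrc1 is known as a macrophage receptor. These are the 5 highest among all 12773 tested genes, the subunit itself left out, over arrays that share their region and letter, and are given as a description.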

How the data were processed

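The authors deposited probe set intensities, linear in scale; the sources used here do not say how probes were summarised. After trimming 2% from each end, every array had a mean of 150, and array medians ran from 27.4 to 30.2, so no further scaling was applied. Gene names came from the platform annotation. The deposited intensities were turned into log2(intensity + 16). Genes entered the test when at least 3 arrays had them over that array's 40th percentile. For 12773 genes, region means were fitted on all 9 arrays in limma 3.58.1 under R 4.3.3 (lmFit, eBayes), adjusting p-values by Benjamini-Hochberg over all of them. The fit was tested on simulated data. Adjusted p "among probe sets" come from the same fit over every probe set with 1 symbol above the filter.

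To see whether letters pair the samples, each array's departure from its region mean was correlated with that of others. The 9 same-letter pairs between regions gave 0.166 to 0.486 and the 18 remaining pairs -0.438 to 0.218, so the letters were taken to pair samples, from the data alone. Block values stand beside a subunit, named ligand or list count where they change the call or count.

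The 10 subunits and the gene lists were chosen with earlier results of these data known. The text names all 10 subunits, at most 4 called members of each partner list by smallest p, plus Col18a1, Fbn2, Crk and the markers named for how they passed the filter, all chosen after their values were seen, and some ligands and leukocyte integrins whatever their value. It also names the 5 genes correlating best with Itga8 and with Itgb8. Ptprc and Itgb3 were named outside these rules. Vax1, Vax2, Foxd1 and Foxd2 were added to check labels. The number of arrays limits the precision. Alternatives changed the filter, normalization, pseudocount, probe set summary, variance model, weights, replicate block or regions fitted, or left out each array. Fits with the poly-A signal or the Gapdh ratio as covariate were chosen after seeing the data. Figures were drawn with matplotlib 3.10.9.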

Additional observations from a re-analysis of the deposited data

How the results depend on the processing

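Each difference of a subunit was recomputed under 20 or 21 alternatives. Of 830 such values, 42 lost a call, 24 gained one and 38 that were uncalled both times changed sign, while no called difference changed sign. The number of genes called for the fissure against the average of both other regions was 1098. It became 2165 with the replicate block, 4099 with array weights, 446 with the poly-A signal as covariate, and 545 to 1721 with 1 array left out. Against nasal cup it was 814, and 1590, 2669, 410 and 420 to 1245 in the same order. Against temporal cup it was 685, and 1541, 3133, 277 and 372 to 1161. Between nasal and temporal cup it was 6, and 17 with the replicate block, 10 with array weights, 3 with only those regions fitted, 10 with the Gapdh ratio as covariate, and 2 to 8 with 1 array left out. The subunits called for the fissure against the average of both other regions numbered 5. They numbered 8 with the replicate block, 8 with array weights and 2 with the poly-A signal. Against nasal cup there were 4, and 1 with the poly-A signal and 2 to 5 with 1 array left out. Against temporal cup there were 5, and 8 with the replicate block, 8 with array weights, 3 with the mean of all probe sets, 1 with the poly-A signal and 2 to 6 with 1 array left out. With the mean of all probe sets, 621 genes were called against temporal cup. Array letters enter as the pairing in the replicate block. Apart from the calls given with block values in the text, the block changed no call of a subunit. The causes were not tested. Dim probe sets, such as those of Itga5 and Itga9, limit what differences can be seen.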
